A study of Mus musculus with 6 samples.

Results

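RNA of genes that drive and control mitosis was compared between N2A cells in which the splicing repressor PTB was knocked down and N2A cells carrying an empty vector. The genes are 37 members chosen by function: mitotic kinases and cyclins, the spindle checkpoint, the kinetochore, condensin and separase, and proteins of the spindle midzone. A gene counted as measured where a transcript cluster, the unit in which the probes of a gene are summarised into 1 signal, carried its symbol and no other, and the brightest such cluster stood for the gene. By that rule 34 of the 37 were measured, out of 14807 genes in all. Cyclin B1 (Ccnb1) and Cenpf were not analysed here, nor was Foxm1, whose cluster also carries the symbol of another gene.

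N2A is an established mouse neuroblastoma line, grown in medium with 10% fetal bovine serum. In the first group (3 samples) the cells were treated with an shRNA for PTB, a hairpin against the RNA of Ptbp1, and the labels give a protein knockdown of close to 80%. In the second group (3 samples) they were treated with empty vector, so the control cells carried no hairpin, and the loss of PTB and the presence of a hairpin cannot be told apart here. The time between treatment and harvest is not given in the sources used here, and all samples come from 1 line, described in the labels as biological replicates without saying whether the cultures were grown apart.

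Total RNA (1 µg per sample, depleted of ribosomal RNA) was hybridised to Affymetrix mouse exon arrays, and the deposited signal of each transcript cluster is a linear intensity, below 0 for some clusters. Summed signal lay between 9098056 and 10440265 on the PTB shRNA arrays and between 10651755 and 12509077 on the empty vector arrays. Ptbp1 itself had signals of 1307, 1040 and 1957 on the PTB shRNA arrays, against 3387, 4203 and 4404 on the empty vector arrays, with no overlap. Markers of the neuronal and sympathoadrenal lineage were present, with Stmn2, Gap43, Uchl1, Elavl4, Phox2a and Hand2 at 1069 or more on every array, whereas Th, Ddc, Nefl and Nefm, 4 of the 17 measured, averaged under 100 over the 6 arrays; 1 of the 17, Gata3, was higher with PTB shRNA and none was lower. Fibroblast markers summed to between 302 and 488 with PTB shRNA and between 237 and 297 with empty vector over 8 genes, each with a mean over all 6 arrays under 100, and 1 of them, Pdgfra, was higher with PTB shRNA (log2 difference 1.17). Leukocyte, epithelial and muscle markers also averaged under 100 over the 6 arrays, as did 5 of 7 glial ones; the part of such markers in the results below was not tested. With 3 arrays in a group, precision was limited by their number.

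A cell enters mitosis when the kinase CDK1, bound to A- and B-type cyclins, is switched on by CDC25 phosphatases, and the kinases PLK1, Aurora A and Aurora B then direct the building of the spindle and the attachment of chromosomes to it. The spindle checkpoint, with MAD2, the BUB proteins and the kinase TTK, holds back CDC20 and the anaphase-promoting complex until every kinetochore is attached, after which separase cuts the cohesin that joins sister chromatids. Most of the RNAs involved are made in the later part of the cell cycle and are low in cells that have stopped dividing. Their promoters are known for a pair of elements. The cell cycle genes homology region, or CHR, is bound by complexes built on MuvB (the DREAM repressor in resting cells, B-MYB and FOXM1 complexes in dividing ones), and CCAAT boxes are bound by the activator NF-Y.

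These elements can be read in the promoters themselves, shown here because they are what most members share beyond their function. RefSeq promoter windows for GRCm38.p6, from 250 bases before to 50 bases after the annotated start, matched 30 of the 37 members and gave 33 windows, since Bub3, Ect2 and Prc1 have 2 each. The start used matched the one listed for the gene in RefSeq in 16 of the 33 windows, and the positions below depend on it. Below, the window of Aurka, the member with the largest difference between the groups, stands beside that of Plk1, the member with the smallest. Capitals mark CHR letters (mostly TTTGAA, with the variant TTTAAA and the variant TTCGAA counted too, on either strand) and CCAAT boxes (CCAAT on either strand, so that ATTGG is marked too).
Aurka (chr2:172370521-172370820, minus strand): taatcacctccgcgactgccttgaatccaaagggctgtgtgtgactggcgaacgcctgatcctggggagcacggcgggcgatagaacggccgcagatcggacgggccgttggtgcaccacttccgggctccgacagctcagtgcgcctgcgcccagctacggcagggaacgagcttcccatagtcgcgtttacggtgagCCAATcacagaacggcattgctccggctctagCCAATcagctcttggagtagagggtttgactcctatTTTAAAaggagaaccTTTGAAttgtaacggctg
Plk1 (chr7:122159185-122159484, plus strand): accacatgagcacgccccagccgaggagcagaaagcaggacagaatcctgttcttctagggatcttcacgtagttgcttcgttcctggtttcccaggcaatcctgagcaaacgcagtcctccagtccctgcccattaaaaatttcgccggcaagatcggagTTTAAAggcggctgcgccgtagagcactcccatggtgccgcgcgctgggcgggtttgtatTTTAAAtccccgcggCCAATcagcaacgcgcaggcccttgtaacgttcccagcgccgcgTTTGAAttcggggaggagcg

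Aurka held 2 CHR matches and 2 CCAAT boxes in its window, and Plk1 held 3 CHR matches and 1 CCAAT box. Both genes thus carry both kinds of letters close to the start. Their differences between the groups lie at opposite ends of the range given below. A relation between the letters and the differences was not tested. Shorter stretches, from 70 bases before to 50 bases after the start, are given for 7 further members to show the variety among them, with the same letters in capitals.
Cdk1 (chr10:69352863-69352982, minus strand): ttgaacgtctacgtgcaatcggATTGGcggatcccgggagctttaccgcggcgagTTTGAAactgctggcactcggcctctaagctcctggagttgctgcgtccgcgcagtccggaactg
Cdc20 (chr4:118437294-118437413, minus strand): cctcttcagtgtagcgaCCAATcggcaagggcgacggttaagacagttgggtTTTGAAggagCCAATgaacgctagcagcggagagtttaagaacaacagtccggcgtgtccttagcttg
Bub1 (chr2:127831810-127831929, minus strand): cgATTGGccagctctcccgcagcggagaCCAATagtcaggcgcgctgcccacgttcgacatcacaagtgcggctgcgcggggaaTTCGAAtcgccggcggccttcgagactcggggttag
Spc25 (chr2:69206164-69206283, minus strand): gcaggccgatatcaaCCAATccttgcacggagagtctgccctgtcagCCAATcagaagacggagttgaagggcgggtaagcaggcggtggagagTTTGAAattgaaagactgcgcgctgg
Cenpa (chr5:30666816-30666935, plus strand): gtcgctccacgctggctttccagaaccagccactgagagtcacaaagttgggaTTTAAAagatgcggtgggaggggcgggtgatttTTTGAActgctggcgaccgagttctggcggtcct
Espl1 (chr15:102296223-102296342, plus strand): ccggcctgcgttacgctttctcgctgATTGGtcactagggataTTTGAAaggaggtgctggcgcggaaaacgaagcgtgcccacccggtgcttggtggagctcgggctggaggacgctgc
Ncapd2 (chr6:125191537-125191656, minus strand): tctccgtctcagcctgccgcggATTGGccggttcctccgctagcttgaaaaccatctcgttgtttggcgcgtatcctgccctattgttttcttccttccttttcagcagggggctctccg

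Spc25 had TTTGAA downstream of 2 CCAAT boxes, Cdk1 and Espl1 had it downstream of 1 in the stretch shown, and Cdc20 had it between a pair of them. Bub1 had TTCGAA in its place. Cenpa had TTTAAA and, downstream of it, TTTGAA in this stretch and no CCAAT box, and Ncapd2 had a CCAAT box and no CHR letters in this stretch, its TTTGAA lying farther upstream. Over all 33 member windows, 72.7% held TTTGAA on either strand, against 17.9% of all 32851 promoter windows in the table. In the last 120 bases, a stretch chosen after the promoters had been seen, the shares were 63.6% of member windows and 5.99% of all windows. CCAAT was present in 78.8% of member windows and 37.4% of all windows, and 57.6% against 2.54% had both TTTGAA in the last 120 bases and CCAAT anywhere. The CCAAT matches had a median position 65 bases before the start. Mad2l1, Ncaph, Nuf2 and Nusap1 had neither set of letters in their windows. Such a match is a description of the sequence and not evidence of binding.

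**Figure D1:**
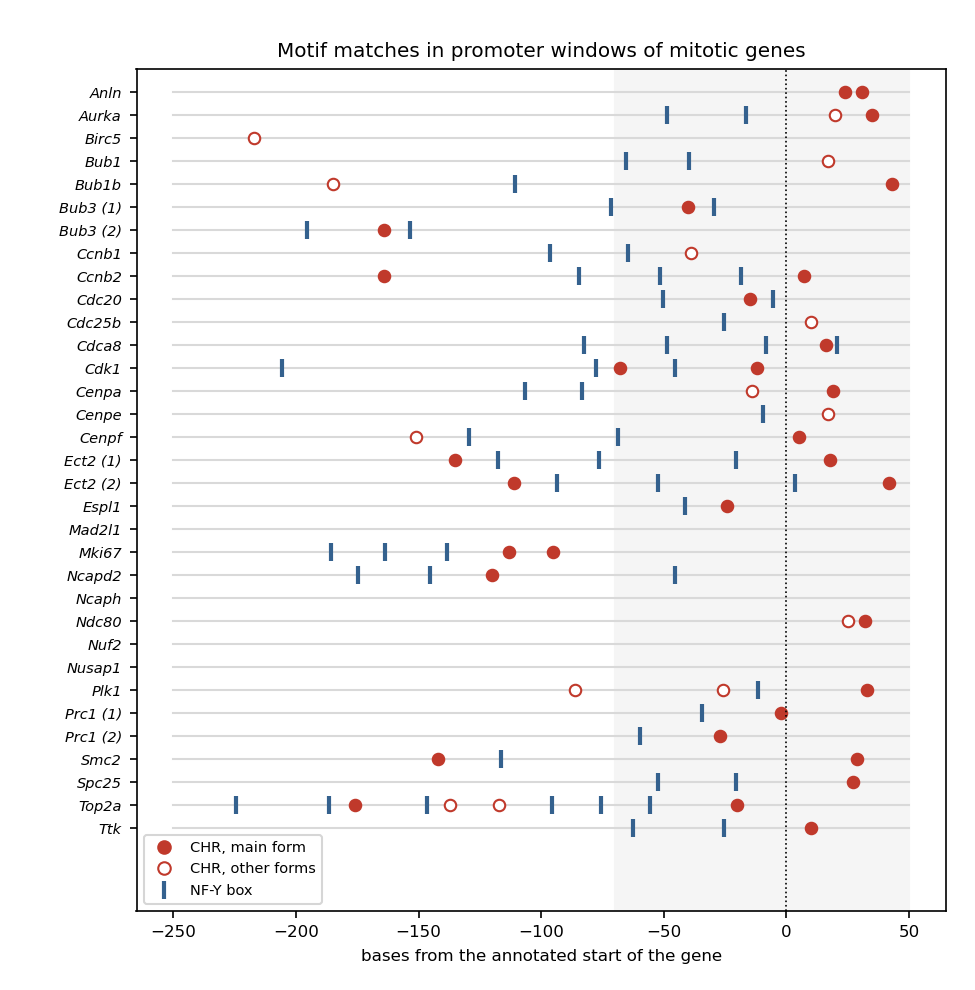
Positions of CHR matches (circles, filled for TTTGAA on either strand and open for its 2 variants) and of CCAAT matches (bars, labelled NF-Y box) in the 33 promoter windows of 30 mitotic genes. The horizontal axis is the distance in bases from the annotated start, with the last 120 bases shaded; filled circles gather in the shaded part, where 63.6% of the windows hold one.

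Which mitotic RNAs differ in level once the hairpin against PTB is present was read from 34 genes. All 34 measured members had a lower mean with PTB shRNA, between 39.7% and 93.6% of the empty vector mean, with a median log2 difference of -0.48 (PTB shRNA minus empty vector, on log2(signal + 16)). After quantile normalization, which gives all arrays the same distribution, the median was -0.29 and 31 of 34 were below 0, the others being Plk1 (0.12), Bub3 (0.08) and Prc1 (0.00). Over all transcript clusters the median was 0.00 both ways, with 51.4% below 0 as deposited and 50% after quantile normalization. Of the 8607 brighter clusters (deciles 6 to 10 of mean signal, which hold every member), 71% lay below 0 as deposited. After quantile normalization 48.6% of them did. Only 3 members passed the test over all clusters (limma, Benjamini-Hochberg adjusted p under 0.05): Aurka, Tpx2 and Smc4 fell and none rose. That is 8.82% of the members, where 3.37% of all clusters were called lower and 1.36% higher. Of the brighter clusters 6.22% were called lower. The share that did not overlap between the groups was wider. On 18 members, or 52.9%, all 3 PTB shRNA arrays lay below all 3 empty vector arrays, against 19.0% of all clusters (10.3% lay the other way round) and 34% of the brighter ones. An unadjusted p under 0.05 was reached by 20 members, all of them lower, against 16.9% of all clusters lower and 8.49% higher at that level, and 30.5% of the brighter ones lower. The same 3 members were called lower after quantile normalization, where 2.86% of clusters were lower and 2.93% higher. In RNA from whole cultures, fewer dividing cells and less mitotic RNA per cell cannot be told apart.

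**Figure D2:**
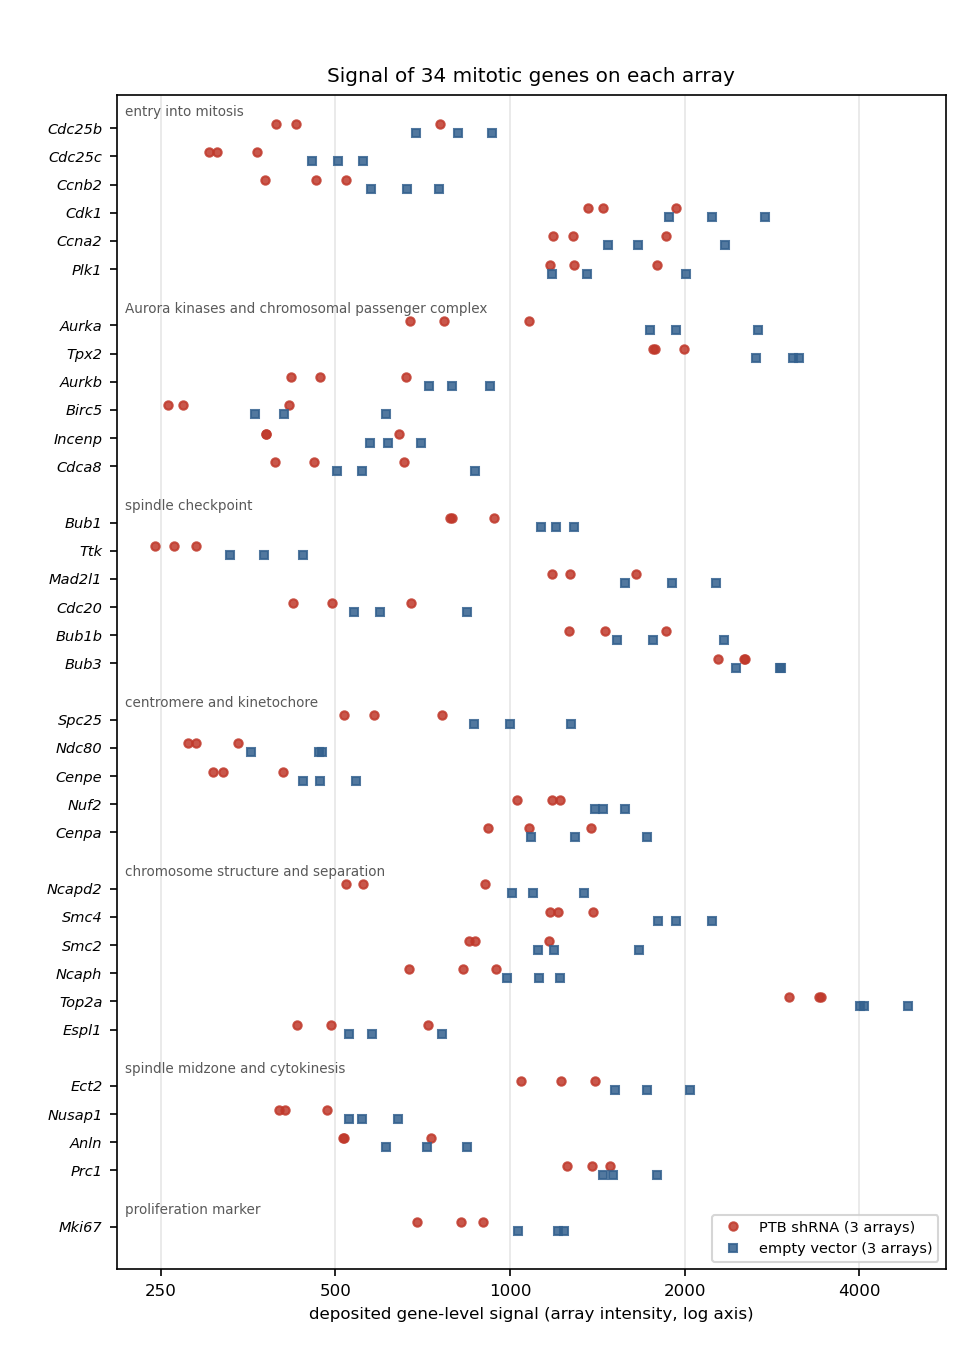
Deposited signal (horizontal, log axis) of the 34 measured mitotic genes on each of the 3 PTB shRNA arrays (circles) and 3 empty vector arrays (squares), grouped by role. The circles lie to the left of the squares without overlap in 18 genes, and Aurka shows the widest gap.

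Among the genes of the Aurora kinases and the chromosomal passenger complex, 2 of 6 fell and 4 did not pass. Of all clusters 3.37% were called lower, and of the brighter ones 6.22%. Aurka encodes Aurora A, the centrosome and spindle pole kinase that helps switch on PLK1. Its signals were 770, 671 and 1079 on the PTB shRNA arrays, against 1931, 1741 and 2671 on the empty vector arrays. The highest PTB shRNA array was thus well below the lowest empty vector array, and the log2 difference was -1.32 ± 0.24 (SE; adjusted p = 0.0457), which leaves 39.7% of the empty vector mean. Tpx2 encodes the microtubule-binding partner that holds Aurora A on the spindle in its active form. It measured 1761, 1780 and 1994 on the PTB shRNA arrays, against 2659, 3155 and 3075 on the empty vector arrays. Its groups did not overlap either, and the log2 difference was -0.68 ± 0.11 (SE; adjusted p = 0.0367). Of all 17213 clusters, 0.232% had a difference at or below that of Aurka. The calls were narrow: leaving out single arrays gave an adjusted p between 0.0548 and 0.144 for Aurka and between 0.057 and 0.129 for Tpx2. No cluster passed in those fits, and the adjusted p of Ptbp1 ran from 0.0536 to 0.132. With a pseudocount of 1 in place of 16 Aurka and Tpx2 did not pass either (adjusted p = 0.0674 for Aurka and 0.0557 for Tpx2).

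Aurora B, the kinase of the chromosomal passenger complex that corrects faulty attachments, is encoded by Aurkb. Its signals were 470, 419 and 661 on the PTB shRNA arrays, against 725, 795 and 922 on the empty vector arrays. They did not overlap, with a log2 difference of -0.66 ± 0.20 (SE; adjusted p = 0.11) that did not pass. Birc5 encodes survivin, the subunit that brings the complex to centromeres, and measured 273, 257 and 416 on the PTB shRNA arrays, against 363, 408 and 612 on the empty vector arrays. Here the highest PTB shRNA array lay above the lowest 2 empty vector arrays, with a difference of -0.52 ± 0.27 (SE; adjusted p = 0.29). The scaffold gene Incenp (-0.46 ± 0.23 (SE; adjusted p = 0.282)) and the borealin gene Cdca8 (-0.34 ± 0.28 (SE; adjusted p = 0.507)) overlapped as well, each with 1 PTB shRNA array, number 3, above the lowest empty vector arrays.

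None of the 6 measured genes of entry into mitosis passed, and their median log2 difference was -0.53. Cdc25c, a phosphatase that removes the inhibitory phosphates from CDK1, came closest. Its signals were 312, 303 and 366 on the PTB shRNA arrays, against 455, 506 and 558 on the empty vector arrays. No array of 1 group reached into the other, and the log2 difference was -0.61 ± 0.12 (SE; adjusted p = 0.0533), with a 95% confidence interval of -0.90 to -0.31. Its relative Cdc25b, which acts at the centrosome early in mitosis, measured 428, 395 and 757 on the PTB shRNA arrays, against 813, 689 and 930 on the empty vector arrays, a difference of -0.66 ± 0.27 (SE; adjusted p = 0.208). In that gene PTB shRNA array 3 stood apart from the other 2 and lay inside the empty vector range. Ccnb2, the B-type cyclin found at the Golgi, had signals of 463, 378 and 522 on the PTB shRNA arrays, against 575, 665 and 755 on the empty vector arrays, without overlap and with a difference of -0.54 ± 0.16 (SE; adjusted p = 0.112). Cdk1, the kinase these cyclins activate, measured 1448, 1363 and 1935 on the PTB shRNA arrays, against 1878, 2229 and 2755 on the empty vector arrays. The groups overlapped by 1 array, and the log2 difference was -0.53 ± 0.20 (SE; adjusted p = 0.177). Cyclin A2 (Ccna2), which works in S phase and up to the start of mitosis, averaged 1443 ± 364 with PTB shRNA and 1830 ± 460 with empty vector (SD, n = 3 arrays each), a difference of -0.34 ± 0.25 (SE; adjusted p = 0.452).

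Plk1, the polo-like kinase that acts from mitotic entry to cytokinesis, differed least of all members. It measured 1291, 1171 and 1794 on the PTB shRNA arrays, against 1360, 1181 and 2007 on the empty vector arrays. The groups interleaved, with a log2 difference of -0.08 ± 0.26 (SE; adjusted p = 0.879) and a 95% confidence interval of -0.72 to 0.56, wide enough to hold a change of the size seen in most other members. A second, far dimmer cluster with the symbol Plk1 read between 29 and 62 with PTB shRNA and between 22 and 48 with empty vector, and its difference of 0.41 had the opposite sign (adjusted p = 0.438). Set against the median of the other members on the same array, the log2 level of Plk1 was 0.73, 0.79 and 0.97 on the PTB shRNA arrays and 0.43, 0.11 and 0.65 on the empty vector arrays. The same quantity for Aurka was -0.04, 0.00 and 0.25 with PTB shRNA and 0.93, 0.66 and 1.06 with empty vector. For Cdk1 it was 0.90, 1.01 and 1.08 with PTB shRNA and 0.89, 1.01 and 1.10 with empty vector. By this quantity Aurka was the 1 member of 34 that lay lower on every PTB shRNA array than on any empty vector array. Plk1 lay higher in that sense together with 6 others, Bub1b, Bub3, Cenpa, Espl1, Prc1 and Nusap1, so it was not distinctive, and the groups overlapped in 26 members, Cdk1 among them. The reference is the median of the members themselves, so those with the largest or smallest differences tend to stand apart on it. The share over all clusters was not taken for this quantity. Plk1, Aurka and Cdk1 were picked after their values were seen, and these relations were not tested. The promoters of Aurka and Plk1 printed above both hold CHR letters and CCAAT boxes, as does that of Cdk1.

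**Figure D3:**
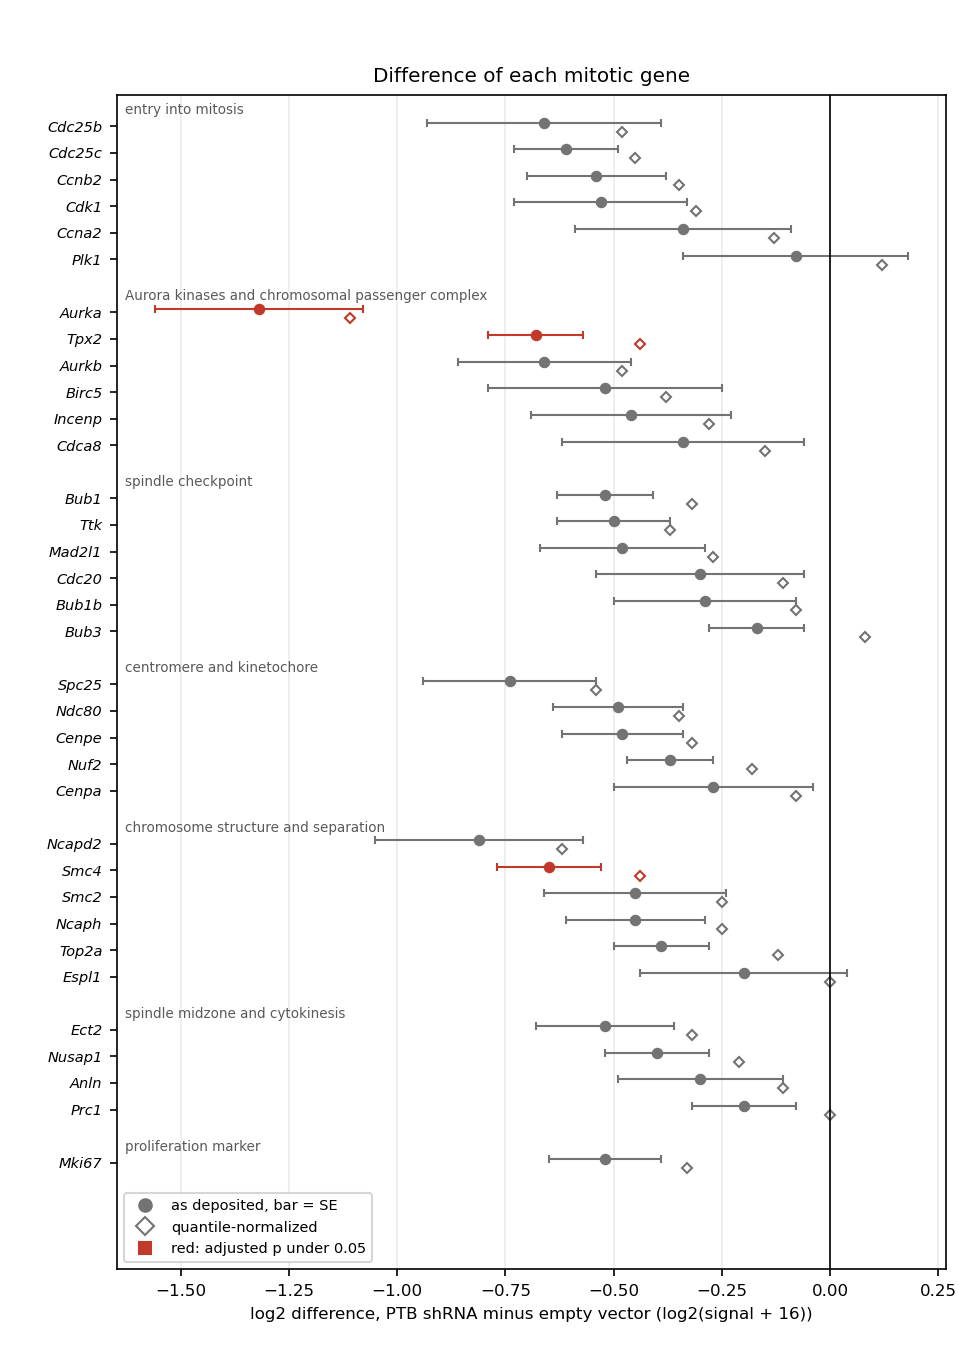
Log2 difference, PTB shRNA minus empty vector, of each mitotic gene on the deposited values (filled circles, bars are limma's standard errors) and after quantile normalization (open diamonds), with calls in red. All circles lie below 0, and after quantile normalization Plk1, Bub3 and Prc1 are at or above it; Aurka, Tpx2 and Smc4 are red both ways.

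The spindle checkpoint genes had a median log2 difference of -0.39, and none of the 6 passed. Bub1, a checkpoint kinase of the kinetochore, measured 793, 789 and 939 on the PTB shRNA arrays, against 1129, 1201 and 1291 on the empty vector arrays. The groups were clearly separate and tight, with a difference of -0.52 ± 0.11 (SE; adjusted p = 0.0594). Ttk, the kinase also known as MPS1 that starts checkpoint signalling, had 263, 244 and 287 on the PTB shRNA arrays, against 329, 377 and 440 on the empty vector arrays. Its groups did not overlap, at a difference of -0.50 ± 0.13 (SE; adjusted p = 0.0898). Mad2l1 encodes MAD2, the protein that binds and restrains CDC20, and read 1180, 1270 and 1652 on the PTB shRNA arrays, against 1578, 1899 and 2261 on the empty vector arrays. PTB shRNA array 3 reached past the lowest empty vector array, and the log2 difference was -0.48 ± 0.19 (SE; adjusted p = 0.19). Cdc20, the target of the checkpoint and activator of the anaphase-promoting complex, measured 494, 423 and 676 on the PTB shRNA arrays, against 596, 539 and 844 on the empty vector arrays, with overlap and a difference of -0.30 ± 0.24 (SE; adjusted p = 0.485). The BUBR1 gene Bub1b gave -0.29 ± 0.21 (SE; adjusted p = 0.458). Bub3, whose protein carries BUB1 and BUBR1 to kinetochores, gave -0.17 ± 0.11 (SE; adjusted p = 0.387), with a 95% confidence interval of -0.44 to 0.10.

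In the centromere and kinetochore group none of the 5 measured genes passed. In 4 of them the groups did not overlap, where 19.0% of all clusters and 34% of the brighter ones lay lower in this way. Spc25, a subunit of the NDC80 complex that grips microtubule ends, had the largest difference of this group. Its signals were 583, 517 and 764 on the PTB shRNA arrays, against 868, 1000 and 1273 on the empty vector arrays, and the log2 difference was -0.74 ± 0.20 (SE; adjusted p = 0.0972). The subunit genes Ndc80 and Nuf2 of the same complex also separated the groups. Ndc80 measured 287, 279 and 340 on the PTB shRNA arrays, against 357, 475 and 469 on the empty vector arrays, a difference of -0.49 ± 0.15 (SE; adjusted p = 0.112). Nuf2 measured 1182, 1026 and 1219 on the PTB shRNA arrays, against 1448, 1402 and 1581 on the empty vector arrays, a smaller difference of -0.37 ± 0.10 (SE; adjusted p = 0.1). All 3 subunit genes thus lay lower on every PTB shRNA array than on any empty vector array, without passing the test. Cenpe, the kinesin that moves chromosomes to the spindle equator, read 307, 320 and 406 on the PTB shRNA arrays, against 471, 439 and 543 on the empty vector arrays, again without overlap (-0.48 ± 0.14 (SE; adjusted p = 0.112)). Cenpa, the histone H3 variant that marks centromeres, averaged 1125 ± 235 with PTB shRNA and 1369 ± 325 with empty vector (SD, n = 3 arrays each) and overlapped (-0.27 ± 0.23 (SE; adjusted p = 0.508)).

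Where 3.37% of all clusters and 6.22% of the brighter ones were called lower, 1 of the 6 genes of chromosome structure and separation fell. This was the condensin ATPase gene Smc4. It measured 1172, 1208 and 1392 on the PTB shRNA arrays, against 1800, 1930 and 2228 on the empty vector arrays. The highest PTB shRNA array was below every empty vector array, and the log2 difference was -0.65 ± 0.12 (SE; adjusted p = 0.0478). That call was the narrowest of the 3, at an adjusted p of 0.0511 with each array centred on its median, 0.0689 with a pseudocount of 1 and between 0.0621 and 0.155 with any 1 array left out. Ncapd2, a subunit of condensin I, had a larger difference with more spread. It measured 558, 521 and 905 on the PTB shRNA arrays, against 1006, 1095 and 1340 on the empty vector arrays, and its log2 difference of -0.81 ± 0.24 (SE; adjusted p = 0.111) did not pass. Ncaph, the subunit that closes the condensin I ring, read 829, 670 and 946 on the PTB shRNA arrays, against 988, 1122 and 1219 on the empty vector arrays, without overlap (-0.45 ± 0.16 (SE; adjusted p = 0.153)). Smc2, the ATPase partner of SMC4 in both condensins, read 871, 850 and 1169 on the PTB shRNA arrays, against 1117, 1191 and 1669 on the empty vector arrays. Its groups overlapped, through PTB shRNA array 3 and empty vector array 1, with a difference of -0.45 ± 0.21 (SE; adjusted p = 0.249). Topoisomerase II alpha (Top2a), which untangles sister chromatids, averaged 3290 ± 227 with PTB shRNA and 4314 ± 470 with empty vector (SD, n = 3 arrays each), without overlap (-0.39 ± 0.11 (SE; adjusted p = 0.107)). The separase gene Espl1 was among the least different members (-0.20 ± 0.24 (SE; adjusted p = 0.651)).

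None of the 4 genes of the spindle midzone and cytokinesis passed. Ect2, the exchange factor that activates RhoA at the division plane, measured 1222, 1044 and 1402 on the PTB shRNA arrays, against 1519, 1722 and 2042 on the empty vector arrays. Its groups did not overlap, with a difference of -0.52 ± 0.16 (SE; adjusted p = 0.12). Nusap1, a microtubule-bundling protein of the spindle, read 400, 409 and 484 on the PTB shRNA arrays, against 527, 556 and 641 on the empty vector arrays, also without overlap (-0.40 ± 0.12 (SE; adjusted p = 0.112)). Anln encodes anillin, the scaffold of the contractile ring, and measured 517, 515 and 731 on the PTB shRNA arrays, against 719, 610 and 843 on the empty vector arrays. Prc1, the bundler of midzone microtubules, measured 1382, 1253 and 1488 on the PTB shRNA arrays, against 1502, 1449 and 1792 on the empty vector arrays. Anillin (-0.30 ± 0.19 (SE; adjusted p = 0.386)) and Prc1 (-0.20 ± 0.12 (SE; adjusted p = 0.372)) overlapped between the groups. Mki67, the widely used marker of dividing cells, had signals of 824, 691 and 900 on the PTB shRNA arrays, against 1210, 1034 and 1241 on the empty vector arrays. It did not overlap, and its log2 difference of -0.52 ± 0.13 (SE; adjusted p = 0.0851) did not pass.

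Array 3 had the highest member signals in both groups. On PTB shRNA array 3 the signal was the highest of its group in 33 of 34 members, where 32.6% of all clusters were highest there, and on empty vector array 3 in 31 of 34, where 40.5% of all clusters were. After quantile normalization these counts were 32 and 26. The summed member signal made up 0.298%, 0.316% and 0.378% of the total on the PTB shRNA arrays, against 0.377%, 0.369% and 0.420% on the empty vector arrays. As a share of the array, then, PTB shRNA array 3 stood at the level of empty vector arrays 1 and 2, and the groups overlapped. Leaving out PTB shRNA array 3 gave a median member difference of -0.59, and leaving out empty vector array 3 gave -0.38.

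The number of members that passed varied with the setting. Arrays centred on their median gave 2 members lower, with 4.16% of clusters lower and 2.18% higher. A pseudocount of 1 gave 0 members, with 0.767% of clusters lower and 0.488% higher, and a pseudocount of 50 gave 5, with 5.40% lower and 1.87% higher. Leaving out the dimmest 30% of clusters gave 9 members, with 11.5% of clusters lower and 4.14% higher, and leaving out the dimmest 50% gave 20, with 24.4% lower and 4.49% higher. Trend and robust settings in limma's moderation gave 10 members, with 8.73% of clusters lower and 2.69% higher. The 7 they added were Ccnb2, Cdc25c, Aurkb, Bub1, Spc25, Ncapd2 and Mki67. Aurka and Tpx2 were among the members called in each of these settings except the pseudocount of 1, and no member was called higher in any. With any 1 array left out, or with a block for the replicate number, 0 members passed. In those fits no cluster at all was called, lower or higher.

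Other genes of mitosis and of neighbouring steps of the cell cycle were counted in the same way. Over 8 such lists, 4 of 178 measured genes fell, or 2.25%, which is below the 3.37% of all clusters and the 6.22% of the brighter ones called lower, so the count of calls sets none of these lists apart. Of 34 listed kinetochore and centromere genes beyond the members, 26 were measured, with a median log2 difference of -0.44. In this list 2 fell and 24 did not pass, a share of 7.69% that is above both backgrounds but rests on 2 genes. The 2 were Dsn1, a subunit of the MIS12 complex that joins the NDC80 complex to the centromere, and Cenpk, a subunit of the inner kinetochore. Dsn1 measured 294, 320 and 438 on the PTB shRNA arrays, against 680, 835 and 820 on the empty vector arrays, a difference of -1.13 ± 0.18 (SE; adjusted p = 0.0367). Cenpk measured 156, 158 and 193 with PTB shRNA, against 313, 342 and 301 with empty vector (-0.86 ± 0.11, SE; adjusted p = 0.032). Both stood apart without overlap. Among 10 other regulators of mitotic entry 1 fell, Mastl, the Greatwall kinase that keeps CDK1 substrates phosphorylated, with 308, 316 and 393 on the PTB shRNA arrays, against 506, 594 and 639 on the empty vector arrays (-0.75 ± 0.14, SE; adjusted p = 0.0484). The median of that list was -0.31, and its share called lower, 10%, rests on Mastl alone.

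No gene passed among 29 of the anaphase-promoting complex and cohesin (median -0.33), 27 mitotic kinesins and spindle proteins (-0.41), 3 other condensin subunits (-0.49), 20 transcription factors of the cell cycle program (-0.32) and 18 G1 cyclins, kinases and inhibitors (-0.24). The largest differences in these lists were -0.92 for the cohesin regulator sororin (Cdca5, adjusted p = 0.0503), -0.77 for the augmin subunit Haus1 (0.0761), -0.67 for the condensin II subunit Ncaph2 (0.0676), -0.69 for the MuvB subunit Lin9 (0.14) and -0.76 for the G1 kinase Cdk4 (0.0668). In the DNA replication machinery, whose genes act in S phase, 1 of 45 fell, or 2.22%, against 3.37% of all clusters. This was the GINS subunit Gins4 (-0.66 ± 0.12, SE; adjusted p = 0.0436). All 45 differences were below 0, where 51.4% of all clusters and 71% of the brighter ones were, and the median was -0.49. The median of the members, -0.48, was therefore close to that of the replication genes, and the G1 list lay nearer to the -0.18 of the brighter clusters. No gene of these 8 lists was called higher, and leaving out any 1 array left none of the 4 called lower past the threshold, nor any other cluster. All PTB shRNA arrays lay below all empty vector arrays in 17 of 27 kinesin and spindle genes and 14 of 29 of the anaphase-promoting complex and cohesin. So they did in 11 of 26 kinetochore genes, 19 of 45 replication genes, 9 of 20 transcription factors and 2 of 3 condensin genes. For entry regulators it was 3 of 10 and for G1 genes 3 of 18, against 34% of the brighter clusters. Such separation was thus not confined to the members. After quantile normalization the list medians ran from -0.08 for the G1 list to -0.30 for the replication and condensin lists. TTTGAA lay in the last 120 bases of 51.7% of 29 promoter windows of the kinesin and spindle genes, 40% of 5 windows of the condensin genes, 25% of 32 of the kinetochore genes, 20% of 10 of the entry regulators, 14.8% of 27 of the transcription factors, 14.3% of 28 of the anaphase-promoting complex and cohesin, 9.8% of 51 of the replication genes and 0 of 17 of the G1 genes. Among measured genes other than the members, the 609 with TTTGAA there had a median log2 difference of 0.00 and 2.79% of them were called lower, against -0.01 and 3.57% of the 11228 without it. Genes with and without it were not matched for brightness or function, and a relation between the letters and the differences was not tested.

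**Figure D4:**
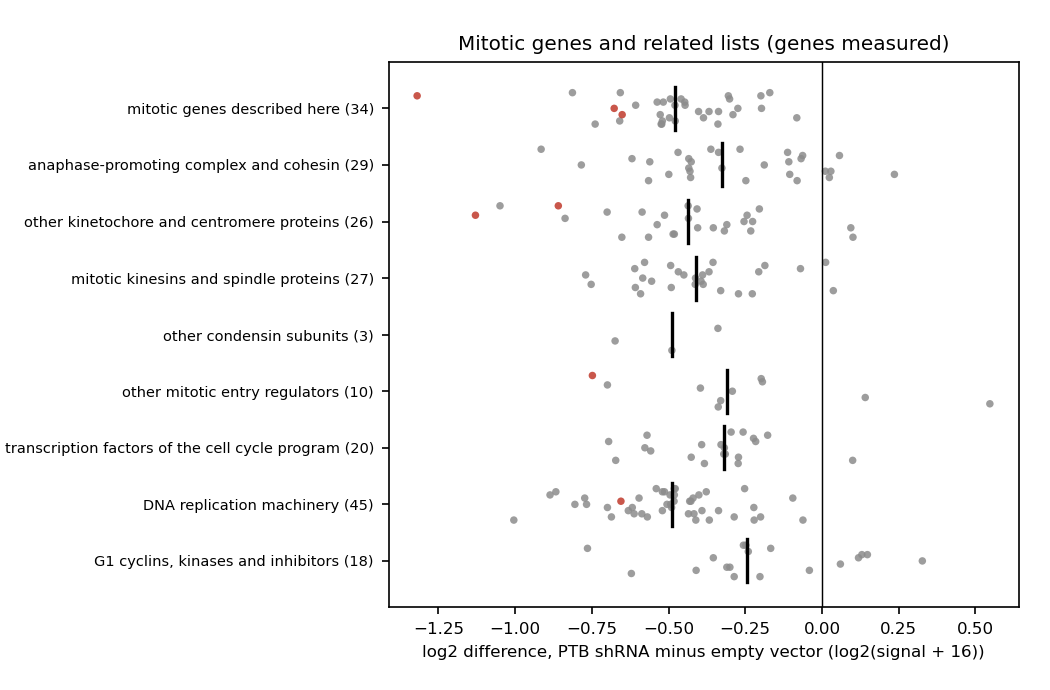
Log2 difference, PTB shRNA minus empty vector, of every measured gene in the mitotic set and in 8 related lists (points, red where the adjusted p is under 0.05), with the median of each list as a black bar and the number of genes in brackets. The medians run from -0.24 for the G1 list to -0.49 for the replication and condensin lists, with -0.48 for the mitotic genes.

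Differences on these arrays varied with brightness, and every member was bright. The members' mean signals with empty vector ran from 382 to 4314, and all of them lay in deciles 6 to 10 of clusters ranked by mean signal. The median difference of all clusters was -0.10 in decile 6, -0.17 in decile 7, -0.19 in decile 8, -0.17 in decile 9 and -0.25 in decile 10, and up to 0.22 in dimmer deciles. Of the 34 members, 32 lay below the median of their own decile, the exceptions being Plk1 and Bub3. The 8 members in decile 10 had a median of -0.43 and the 10 in decile 9 had -0.45. Among the brighter clusters, 19.0% had a difference at or below the members' median, and 18.8% after quantile normalization. The part of this brightness trend in the members' differences was not tested beyond these values.

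**Figure D5:**
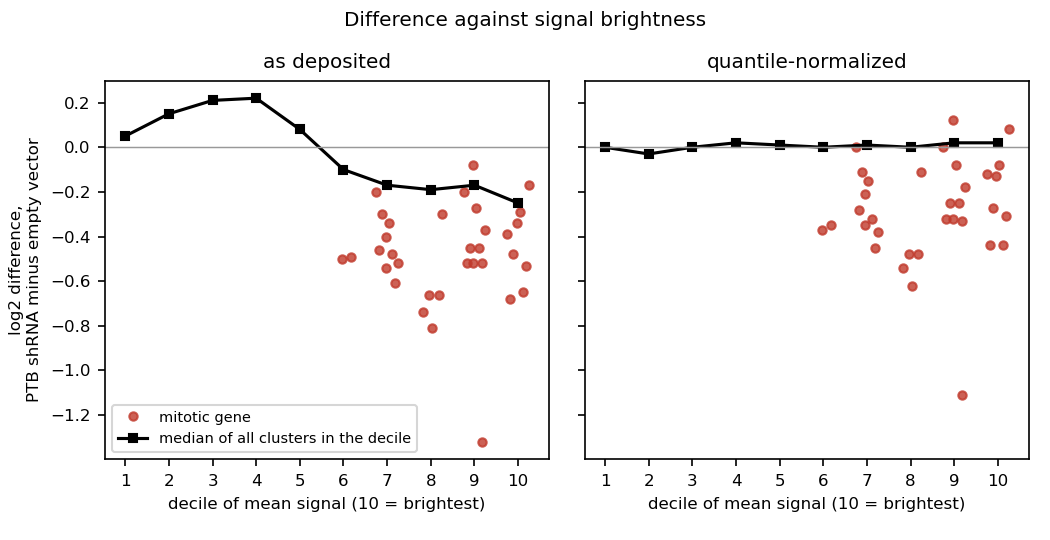
Log2 difference, PTB shRNA minus empty vector, against the decile of mean signal for the 34 mitotic genes (circles) and for the median of all clusters in each decile (line), on deposited values at left and after quantile normalization at right. The line falls to -0.25 in the brightest decile at left and stays near 0 at right; most circles lie below it in both, and Plk1 and Bub3 lie above it.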

How the data were processed

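The authors deposited 1 intensity for each transcript cluster and array, on a linear scale, whole and between -616 and 23431. GCOS 1.3 is the software the submitters' processing notes name. How probes were summarised, background removed and arrays scaled is not given in the sources used here. Of 17213 clusters, 15146 had 1 gene symbol in the platform annotation, 1278 several and 789 none.

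Negative values were replaced by 0, and limma 3.58.1 (R 4.3.3; lmFit, then eBayes) was run on log2(signal + 16) for all 6 arrays without a block and without further normalization. Differences on this scale understate those of dim genes. Benjamini-Hochberg adjustment took in all clusters, and the fit was tested on simulated data. The smallest p of an exact test with 3 arrays a group is 0.1; calls rest on limma's moderated test, whose p-values measure the spread between these samples only. Means are ± SD.

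The members, the 8 related lists and the marker lists were chosen with earlier results of these data known. Members past the threshold and up to 4 per role with the largest differences are given array by array; from each related list up to 4 called genes are named, or the 1 with the largest difference. Other genes, and the promoters printed, were picked after values were seen. Alternatives were quantile normalization, median centring, pseudocounts of 1 and 50, dropping the dimmest 30% or 50% of clusters, trend and robust settings in eBayes, a replicate block, and each array left out in turn. Plots used Python 3.11.15 and matplotlib 3.10.9. Promoter windows came from RefSeq (GRCm38.p6); no array coordinates were used.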

Additional observations from a re-analysis of the deposited data

How the results depend on the processing

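The members' median difference of -0.48 kept its sign under every alternative run, between -0.59 and -0.38 with any 1 array left out. Members called lower numbered 3 as reported, 0 with a pseudocount of 1, 5 with a pseudocount of 50, 9 without the dimmest 30% of clusters, 20 without the dimmest 50% (where 24.4% of clusters were called lower), 10 with trend and robust settings (8.73% of clusters), 0 with the replicate block and 0 with any 1 array left out, when 11 to 25 were lower at an unadjusted p under 0.05. Single members changed sign only as follows: Plk1 (0.124), Bub3 (0.075) and Prc1 (0.004) after quantile normalization, and Plk1 without PTB shRNA array 2 (0.042), without empty vector array 3 (0.137) and in its dimmer cluster (0.415); without any 1 array Plk1 ranged from -0.262 to 0.137. In the 8 related lists, 4 genes were called lower as reported, 9 with arrays centred on their median, 1 and 13 with pseudocounts of 1 and 50, 31 and 72 without the dimmest 30% and 50%, 40 with trend and robust settings, and 0 with the replicate block or with any 1 array left out; 1 gene was called higher without the dimmest 50% and with trend and robust settings, against 0. Over all clusters, 234 were higher and 580 lower, 505 higher after quantile normalization (with 493 lower), 376 higher with arrays centred, 84 higher and 132 lower with a pseudocount of 1, 930 lower with a pseudocount of 50, 499 and 1386 without the dimmest 30%, 386 and 2100 without the dimmest 50%, 463 and 1502 with trend and robust settings, 0 and 0 with the replicate block and with any 1 array left out (then 1001 to 1721 higher and 2008 to 3018 lower at an unadjusted p under 0.05). The filters test fewer clusters; the cause of the other moves was not tested. Deviations of same-numbered arrays from their group means correlated at 0.232, 0.055 and 0.258, so the numbers were not taken as pairs, although each of the 6 arrays correlated best with its own number. With the replicate block 28 members were lower at an unadjusted p under 0.05, where 2963 of all 17213 clusters were lower and 1708 higher. The lowest adjusted p among the members was 0.084, a value that Ptbp1 had as well.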
